A study of Homo sapiens with 28 samples.

Results

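Newly made RNA in Jurkat T cells was compared between 1 h and 2 h after activation. The members are the labelled RNA samples of these hours, chosen by label: 2 samples at 1 h and 3 samples at 2 h, 5 of the 28 samples of the series, with values for all 7485 genes of the deposited table. Jurkat is an established human T cell leukaemia line. All cells were grown in RPMI1640, and all samples of both hours came from cells treated with PMA (phorbol myristate acetate) at 0.5 µg/ml and PHA (the lectin phytohaemagglutinin) at 2 µg/ml. Activated cells were collected at 1, 2, 3 and 4 h and unactivated cells alongside them, each as total RNA and as labelled RNA, in 10 groups. Labelled RNA is the RNA that carried 4-thiouridine (4sU) and was pulled down through biotin-HPDP on streptavidin beads, per the labels. The labelling time was not found in the labels.

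PMA switches on protein kinase C and PHA crosslinks the T cell receptor, so that Ras and ERK, calcineurin and NFAT, and NF-kB signalling start together. Immediate early genes, which need no new protein, answer first, and many of them encode transcription factors or inhibitors that damp the same pathways. Delayed early genes follow, some of them under the control of the first factors. Labelled RNA reports on recent synthesis, whereas total RNA also holds molecules made before activation and changes with decay as well.

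The promoters of 5 genes with large changes are shown because the labelled RNA of PDGFA and NAB1 rose, and that of NFKBIA, IKZF2 and RAG1 fell, within this hour. The sequences are from RefSeq (GRCh38.p14), run from 250 bases before to 50 bases after the start of the gene, and are written 5′ to 3′ on the strand of the gene. Capitals mark matches to the motifs searched on both strands.
PDGFA chr7:520177-520476 (minus strand): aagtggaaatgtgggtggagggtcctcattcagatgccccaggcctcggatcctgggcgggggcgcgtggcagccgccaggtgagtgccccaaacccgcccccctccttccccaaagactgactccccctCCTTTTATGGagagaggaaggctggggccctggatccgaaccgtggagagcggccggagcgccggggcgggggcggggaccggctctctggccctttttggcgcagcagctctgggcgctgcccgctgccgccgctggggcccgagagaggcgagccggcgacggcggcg
NAB1 chr2:190648645-190648944 (plus strand): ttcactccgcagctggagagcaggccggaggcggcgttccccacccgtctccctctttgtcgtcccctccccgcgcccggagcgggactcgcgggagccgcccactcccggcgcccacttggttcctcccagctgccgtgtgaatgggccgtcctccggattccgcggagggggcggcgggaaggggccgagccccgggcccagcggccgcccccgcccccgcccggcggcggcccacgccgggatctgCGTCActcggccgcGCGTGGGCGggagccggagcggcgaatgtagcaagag
NFKBIA chr14:35404700-35404999 (minus strand): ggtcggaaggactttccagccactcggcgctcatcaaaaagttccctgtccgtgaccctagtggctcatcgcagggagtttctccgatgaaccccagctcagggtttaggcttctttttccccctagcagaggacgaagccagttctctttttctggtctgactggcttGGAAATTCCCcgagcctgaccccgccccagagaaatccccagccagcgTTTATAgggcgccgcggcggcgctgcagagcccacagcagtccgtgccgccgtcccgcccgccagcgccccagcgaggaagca
IKZF2 chr2:213152407-213152706 (minus strand): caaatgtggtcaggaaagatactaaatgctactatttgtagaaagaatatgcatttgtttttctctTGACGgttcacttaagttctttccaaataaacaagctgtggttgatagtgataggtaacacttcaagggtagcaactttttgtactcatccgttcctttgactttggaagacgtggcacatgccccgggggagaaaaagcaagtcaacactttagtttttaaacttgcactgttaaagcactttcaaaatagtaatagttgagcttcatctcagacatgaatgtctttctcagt
RAG1 chr11:36510103-36510402 (plus strand): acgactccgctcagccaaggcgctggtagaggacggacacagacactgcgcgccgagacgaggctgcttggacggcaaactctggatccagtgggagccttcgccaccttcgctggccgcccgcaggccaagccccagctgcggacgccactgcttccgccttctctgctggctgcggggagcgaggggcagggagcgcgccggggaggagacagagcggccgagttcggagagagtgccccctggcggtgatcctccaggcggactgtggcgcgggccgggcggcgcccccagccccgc
In PDGFA the capitals are a CArG box, the sequence that the serum response factor binds, with its first base at position -120 from the start. In NAB1 they are the TGACG core of the cAMP response element (CRE), read on the other strand, at position -1 and an EGR motif (GCGTGGGCG) at position 14. In NFKBIA they are an NF-kB motif (read on the other strand) at position -81 and a TATA box (TATAAA, read on the other strand) at position -33. In IKZF2 the TGACG core starts at position -184, and the RAG1 window held none of the motifs. Of all 35116 promoters of the RefSeq table, 1.29% held the CArG box, 24.6% the TGACG core, 0.794% the EGR motif, 1.91% the NF-kB motif and 11.5% the TATA box. A match is a description of the letters. DUSP5 is named without a promoter.

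The deposited table gives a mean and an SD per group on a normalised scale, and no value of a single sample. With 2 samples at 1 h, both values follow from the mean and the SD and are given below, although which is replicate A and which replicate C is not known. The 3 values at 2 h are given as mean ± SD. No value among 3 can lie more than 1.155 SD from the mean, which shows for a gene whether the values of both hours can overlap. The values are normalised by a method that the labels do not give. A change is therefore read as relative to the typical gene, and the amount of labelled RNA per cell cannot be told. Each value comes from a whole culture, so fewer cells expressing a gene and less RNA per cell cannot be told apart. Depth is unknown because the table holds no counts. The median coefficient of variation over genes was 11.6% at 1 h and 12.4% at 2 h, within the range of 10.4% to 18.2% over the 5 labelled groups. Of 14 T cell markers 7 were measured, including CD3D, CD247, LCK and ZAP70, and their labelled values summed to 1513 at 1 h and 1720 at 2 h. B cell and erythroid markers were not among the genes of the table, while 2 of 8 myeloid markers (AIF1 and VCAN, sum 81.3 and 67.2) and 1 of 6 stromal markers (THY1, 18.4 and 20.4) were.

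Within this hour 190 genes rose and 168 fell in labelled RNA (limma on log2(value + 1), Benjamini-Hochberg adjusted p under 0.05 over all 7485 genes, two-sided). These are 4.78% of the genes tested, 2.54% higher and 2.24% lower at 2 h. An unadjusted p under 0.05 was reached by 1196 genes. The median log2 change was -0.01 over all genes. On this scale, which makes changes at low levels look smaller, 66 of the genes that rose and 52 of those that fell had changed at least 2-fold. Changes of at least 4-fold were found for 8 and 3 genes. The values of both hours could not overlap for 189 of the 190 genes that rose, the exception being PHGDH, and for all 168 that fell. This was read from the same means and SDs as the test, so it gives the calls no independent support. With a constant prior variance 237 genes were called, with the residual variance taken from all 10 groups 706, and without the unactivated group 564. Over all genes 28.2% had values that could not overlap, 12.5% higher and 15.7% lower at 2 h.

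**Figure D1:**
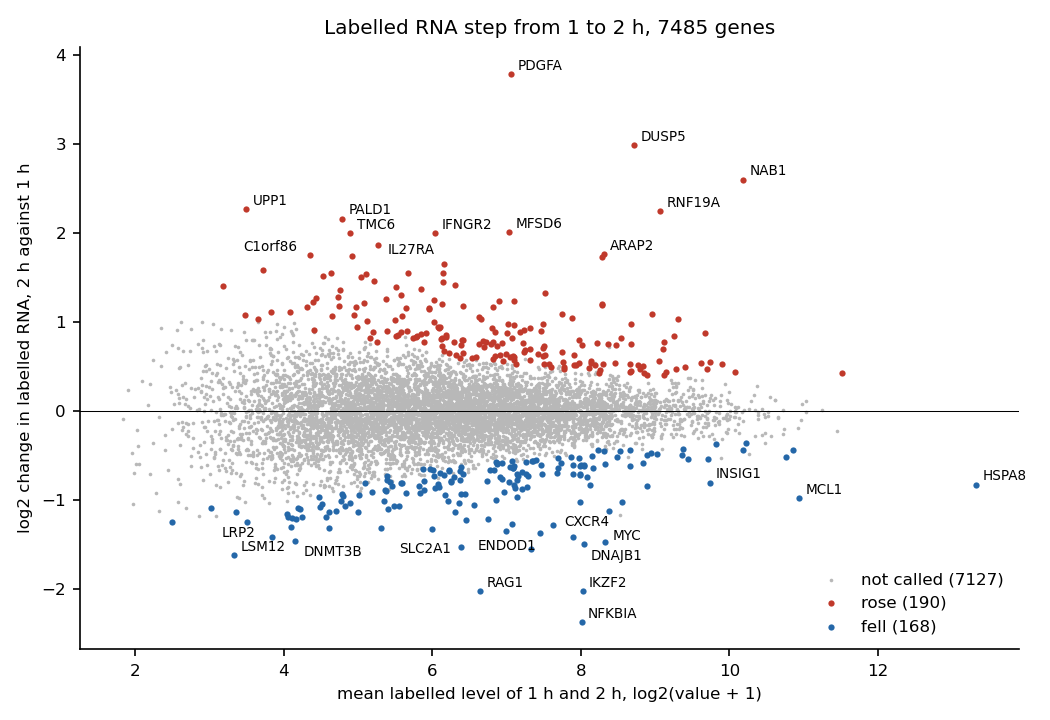
Each point is a gene, with its mean labelled level at 1 h and 2 h on the x axis (log2(value + 1)) and its log2 change in labelled RNA from 1 h to 2 h on the y axis, and red and blue mark genes that rose (190) or fell (168). PDGFA, DUSP5 and NAB1 stand highest, and NFKBIA, IKZF2 and RAG1 lowest.

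PDGFA, which encodes the A chain of the platelet-derived growth factor, rose most. Its labelled value was 14.01 and 20.4 in the samples at 1 h and 248.8 ± 34.4 (SD, n = 3) at 2 h. Every sample at 2 h was far above both at 1 h, and the log2 change was 3.78 ± 0.24 (SE; limma adjusted p = 2.68e-16). DUSP5, a nuclear phosphatase that inactivates ERK, had 88.0 and 98.5 at 1 h and 747 ± 75.7 at 2 h, a log2 change of 2.99 ± 0.16 (limma adjusted p = 3.18e-19). NAB1, a corepressor that binds EGR transcription factors, had 304 and 353 at 1 h and 1996 ± 139 at 2 h, a log2 change of 2.60 ± 0.15 (limma adjusted p = 2.68e-16). These 3 genes were already above the unactivated cells at 1 h: their unactivated labelled means were 4.45 ± 2.05 for PDGFA, 4.36 ± 0.73 for DUSP5 and 98.8 ± 30.1 for NAB1 (SD, n = 3).

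RNF19A, a RING-type ubiquitin ligase, showed another course. Its labelled value was 184 ± 15.6 in unactivated cells, 179 and 193 at 1 h, and 887 ± 36.3 at 2 h. The samples at 1 h lay on the unactivated level, and the step to 2 h was 2.25 ± 0.13 on the log2 scale (limma adjusted p = 3.44e-18). IFNGR2, the signalling chain of the interferon gamma receptor, had 21.97 ± 2.83 in unactivated cells, 25.3 and 25.4 at 1 h, and 104 ± 11.7 at 2 h. Its change within the hour was 2.00 ± 0.22 (log2; limma adjusted p = 8.41e-09). RCOR1, the scaffold of the CoREST repressor complex, had 112 ± 13.7 in unactivated cells, 130 and 156 at 1 h, and 476 ± 28.7 at 2 h, a log2 change of 1.73 ± 0.13 (limma adjusted p = 1.50e-13). IL27RA, a chain of the interleukin 27 receptor, went from 15.6 and 15.7 at 1 h to 59.4 ± 3.96 at 2 h, a log2 change of 1.86. ARAP2, a GTPase-activating protein for Arf proteins, went from 143 and 144 to 489 ± 64.2 (log2 change 1.76). The transporter family member MFSD6 went from 35.2 and 67.3 to 209 ± 13.3 (log2 change 2.01). The remaining genes among the 12 with the largest rise lay at low levels: UPP1, which splits uridine, PALD1, the channel family member TMC6 and C1orf86 had labelled means of 17.7 to 46.8 at 2 h and log2 changes of 1.75 to 2.27.

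NFKBIA, which encodes the NF-kB inhibitor IκBα and is itself a target of NF-kB, fell most. Its labelled value was 419 and 444 at 1 h and 83.2 ± 9.94 (SD, n = 3) at 2 h, a log2 change of -2.36 ± 0.23 (limma adjusted p = 1.18e-08). Unactivated cells had 36.3 ± 15.04, so that the labelled RNA was high at 1 h and much lower at 2 h, with a mean still above that of unactivated cells. IKZF2, which encodes the Ikaros family factor Helios, differed in that its level had not risen before. It had 486 ± 55.1 in unactivated cells, 411 and 422 at 1 h and 102 ± 11.9 at 2 h, a log2 change of -2.02 ± 0.15 (limma adjusted p = 1.22e-14). RAG1, a subunit of the recombinase that rearranges antigen receptor genes, fell through both hours, from 529 ± 114 in unactivated cells to 136 and 183 at 1 h and 38.6 ± 3.03 at 2 h. Its log2 change from 1 h to 2 h was -2.02 ± 0.22 (limma adjusted p = 1.00e-08), and it was no longer called when the fit used unlogged values (adjusted p = 0.236). RAG2, the partner subunit, went from 22.01 and 28.99 to 10.7 ± 2.58 (log2 change -1.18 ± 0.32, limma adjusted p = 0.0166).

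Other large falls were in single genes of different kinds. SLC2A1, the glucose transporter GLUT1, fell from 117 and 130 at 1 h to 42.4 ± 9.98 at 2 h (log2 change -1.52). DNAJB1, a cochaperone induced by heat shock, fell from 349 and 427 to 138 ± 32.7 (log2 change -1.48). The growth-linked transcription factor gene MYC fell from 405 and 532 to 169 ± 36.3 (log2 change -1.47). CXCR4, a chemokine receptor, fell from 295 and 394 to 129 ± 11.9 (log2 change -1.41), and ENDOD1 from 229 and 275 to 97.2 ± 11.9 (log2 change -1.37). In each of these genes both samples at 1 h lay above any value possible at 2 h. LSM12, DNMT3B, a DNA methyltransferase, and LRP2 were also among the 12 largest falls, with labelled means of 3.98 to 8.54 at 2 h and log2 changes of -1.41 to -1.61.

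The first wave of the response moved in both directions. Of 13 measured immediate early genes 2 rose (15.4%, against 2.54% of all genes) and 5 fell (38.5%, against 2.24%) within the hour, with a median log2 change of -0.09 against -0.01 over all genes. KLF10, a transcription factor of the Krüppel-like family, rose from 571 and 572 at 1 h to 1053 ± 112 at 2 h (log2 change 0.88 ± 0.16, limma adjusted p = 0.000242). ID1, an inhibitor of basic helix-loop-helix factors, rose from 25.8 and 27.3 to 67.1 ± 6.44 (log2 change 1.31). MYC, JUNB, SRF, MCL1 and KLF6 fell. JUNB, a subunit of AP-1, fell from 186 and 191 to 78.2 ± 24.1 (log2 change -1.26 ± 0.29, limma adjusted p = 0.00476). MCL1, which encodes a short-lived survival protein of the BCL2 family, fell from 2535 and 2674 to 1322 ± 94.8 (log2 change -0.98 ± 0.12, limma adjusted p = 1.13e-07). IER3 and DUSP2, early genes with unactivated labelled means of 10.6 and 71.1, were high in both hours and were not called. IER3 had 446 and 485 at 1 h and 460 ± 72.2 at 2 h (log2 change -0.02, limma adjusted p = 0.985), and DUSP2, a phosphatase of MAP kinases, had 1910 and 2133 at 1 h and 2181 ± 259 at 2 h (log2 change 0.11, limma adjusted p = 0.788).

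Among the inhibitors of MAP kinase signalling, 3 of 10 measured genes rose (30%, against 2.54% of all genes). None fell (against 2.24%), and the median was 0.22. DUSP5 is described above. SPRY2, a Sprouty inhibitor of Ras signalling, had 25.9 and 48.9 at 1 h and 84.8 ± 13.8 at 2 h (log2 change 1.16). SPRED1, a related inhibitor that acts through neurofibromin, had 62.0 and 64.6 at 1 h and 133 ± 12.8 at 2 h (log2 change 1.06).

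NF-kB targets and feedback genes divided, with 2 of 19 rising (10.5%, against 2.54% of all genes), 3 falling (15.8%, against 2.24%) and a median of 0.05. The genes that fell, NFKBIA, TNFAIP3 and IRF1, encode 2 inhibitors of the pathway and an interferon regulatory factor. TNFAIP3, the ubiquitin-editing protein A20, fell from 426 and 480 to 208 ± 27.6 (log2 change -1.12 ± 0.20, limma adjusted p = 0.000278), a level still above the 43.0 ± 16.2 of unactivated cells. NFKB1, which encodes the p105 precursor of the p50 subunit, rose from 172 and 203 to 434 ± 8.68 (log2 change 1.21 ± 0.14, limma adjusted p = 3.78e-08). CFLAR, an inhibitor of caspase 8 activation, rose from 35.3 and 39.7 to 90.6 ± 4.47 (log2 change 1.25).

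Of 37 receptor-proximal signalling genes of T cells, receptor subunits included, 5 rose (13.5%, against 2.54% of all genes). Another 2 fell (5.4%, against 2.24%), and the median was 0.10. SIT1, an adaptor that damps receptor signalling, rose from 26.9 and 42.7 to 104 ± 15.4 (log2 change 1.55). DGKA, the kinase that removes diacylglycerol, had 50.9 and 72.5 and then 108 ± 7.12 (log2 change 0.79). The guanine nucleotide exchange factor VAV1 (0.79) and the zeta chain CD247 (0.64) also rose on the log2 scale. RASGRP1, the exchange factor that links diacylglycerol to Ras, fell from 124 and 130 to 60.7 ± 6.54 (log2 change -1.05), and the adaptor SLA fell from 163 and 199 to 112 ± 15.3 (log2 change -0.68).

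Transcription factors of T cell identity rose in 3 of 24 cases (12.5%, against 2.54% of all genes) and fell in 5 (20.8%, against 2.24%), with a median of 0.08. Besides IKZF2, IKZF1, which encodes Ikaros, fell from 309 and 370 at 1 h to 167 ± 9.34 at 2 h (log2 change -1.01 ± 0.13, limma adjusted p = 2.31e-07). BCL11B, a factor that keeps T cell commitment, fell from 565 and 658 to 341 ± 26.7 (log2 change -0.84). ETS1 (-0.64) and RORA (-0.59) fell by less on the log2 scale. CBFB, the partner subunit of RUNX factors, rose from 415 and 421 to 854 ± 47.3 (log2 change 1.03 ± 0.12, limma adjusted p = 7.05e-08). SATB1, a chromatin organiser, rose from 636 and 637 to 928 ± 90.6 (log2 change 0.54), and LEF1, a Wnt pathway factor, rose from 524 and 603 to 793 ± 32.2 (log2 change 0.49).

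Regulators of apoptosis rose in 3 of 23 cases, CFLAR and BCL2L1 among them (13.04%, against 2.54% of all genes). Only MCL1 fell (4.348%, against 2.24%), a share that rests on 1 gene, and the median was 0.04. BCL2L1, the survival gene that encodes BCL-XL, rose from 58.8 and 62.5 to 107 ± 13.1 (log2 change 0.80) while MCL1 of the same family fell. Of 31 genes of the actin cytoskeleton 3 rose (9.68%, against 2.54% of all genes) and 4 fell (12.9%, against 2.24%). The crosslinker ACTN1 rose from 33.7 and 50.3 to 114 ± 2.21 (log2 change 1.42), and the filamin FLNA rose from 390 and 453 to 683 ± 63.0 (log2 change 0.69). SRF, the factor that drives actin genes, fell from 101 and 118 to 53.3 ± 1.49 (log2 change -1.03).

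In the lists of cholesterol, glycolysis, chaperone and stress response genes between 6.25% and 14.3% were called, against 4.78% of all genes. Of 21 genes of cholesterol synthesis and uptake 1 rose and 2 fell (14.3% called), with a median of -0.38, the lowest of the lists with at least 5 measured members. INSIG1, which holds back the sterol-sensing factor SREBP, fell from 928 and 1233 at 1 h to 620 ± 23.1 at 2 h (log2 change -0.80 ± 0.14, limma adjusted p = 0.000175), and STARD4, a sterol carrier, rose (0.55). Of 23 glycolysis genes PKM, a pyruvate kinase, rose (0.47) and SLC2A1 and the hexokinase HK2 (-0.73) fell. Of 32 heat shock and chaperone genes (6.25% called) only DNAJB1 and HSPA8 changed, and both fell. HSPA8, the constitutive HSP70 and the gene with the highest labelled mean in both hours, went from 12462 and 13747 to 7405 ± 1146 (log2 change -0.82 ± 0.11, limma adjusted p = 4.94e-06). Quantile normalisation sets its change to 0, because it ranks highest in both hours. In the unfolded protein and integrated stress response, 1 gene rose (PHGDH, a serine synthesis enzyme) and 3 fell (HERPUD1, CANX and HSP90B1) of 36 (11.1% called).

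Genes of G2 and M phase had a median of -0.23 over 57 genes and an unadjusted p under 0.05 in 19, against 1196 of all 7485 genes. By the adjusted limma test only ECT2 (-0.53) and CCNA2 (-0.43) fell and none rose (3.51% called, against 4.78% of all genes). Of 54 genes of S phase, CCNE2, a cyclin of S phase entry, rose (0.62) and DTL, a substrate receptor of a ubiquitin ligase, fell (-0.61). Together they are 3.70% of this list, against 4.78% called over all genes. Zinc finger genes named ZNF fell in 11 of 238 cases (4.62%, against 2.24% of all genes) and rose in 3 (1.26%, against 2.54%), with a median of -0.09. Of 31 RNA-binding proteins linked to AU-rich elements and decay, IGF2BP3, FXR2 and CELF2 rose (9.68%, against 2.54% of all genes). Only 1 fell (3.23%, against 2.24%). That gene was ZC3H12A, the endoribonuclease regnase-1, which went from 98.9 and 145 to 51.8 ± 5.21 (log2 change -1.22). Among 26 long nuclear and host transcripts 6 were measured, with a median of -0.23 against -0.01 over all genes. MALAT1 alone of these rose (0.42), or 16.7% against 2.54% of all genes, a share that rests on 1 gene. None of 78 cytosolic ribosomal protein genes, 58 mitochondrial ribosomal protein genes, 40 proteasome genes, 52 mRNA decay genes or 38 histone genes was called in limma, against 4.78% of all genes. An unadjusted p under 0.05 was reached by 9, 1, 0, 8 and 6 of them, against 1196 of all 7485 genes. Histone genes are near-identical, so their single values are uncertain. GAPDH, often taken as a reference, had 677 and 851 at 1 h and 770 ± 189 at 2 h (log2 change 0.01, limma adjusted p = 0.993). ELAVL1, the gene of the stabilising RNA-binding protein HuR, had 80.0 and 85.1 and then 65.0 ± 9.40 (log2 change -0.34, limma adjusted p = 0.410). With a constant prior variance in limma the calls of JUNB, RAG2, LRP2, SATB1, HERPUD1, PHGDH, DGKA, FLNA, PKM, STARD4, NFATC3, ECT2, CCNA2, CCNE2, WDR3, AEN, FXR2, UQCRC2 and MALAT1 were lost, with adjusted p from 0.0545 to 0.252.

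**Figure D2:**
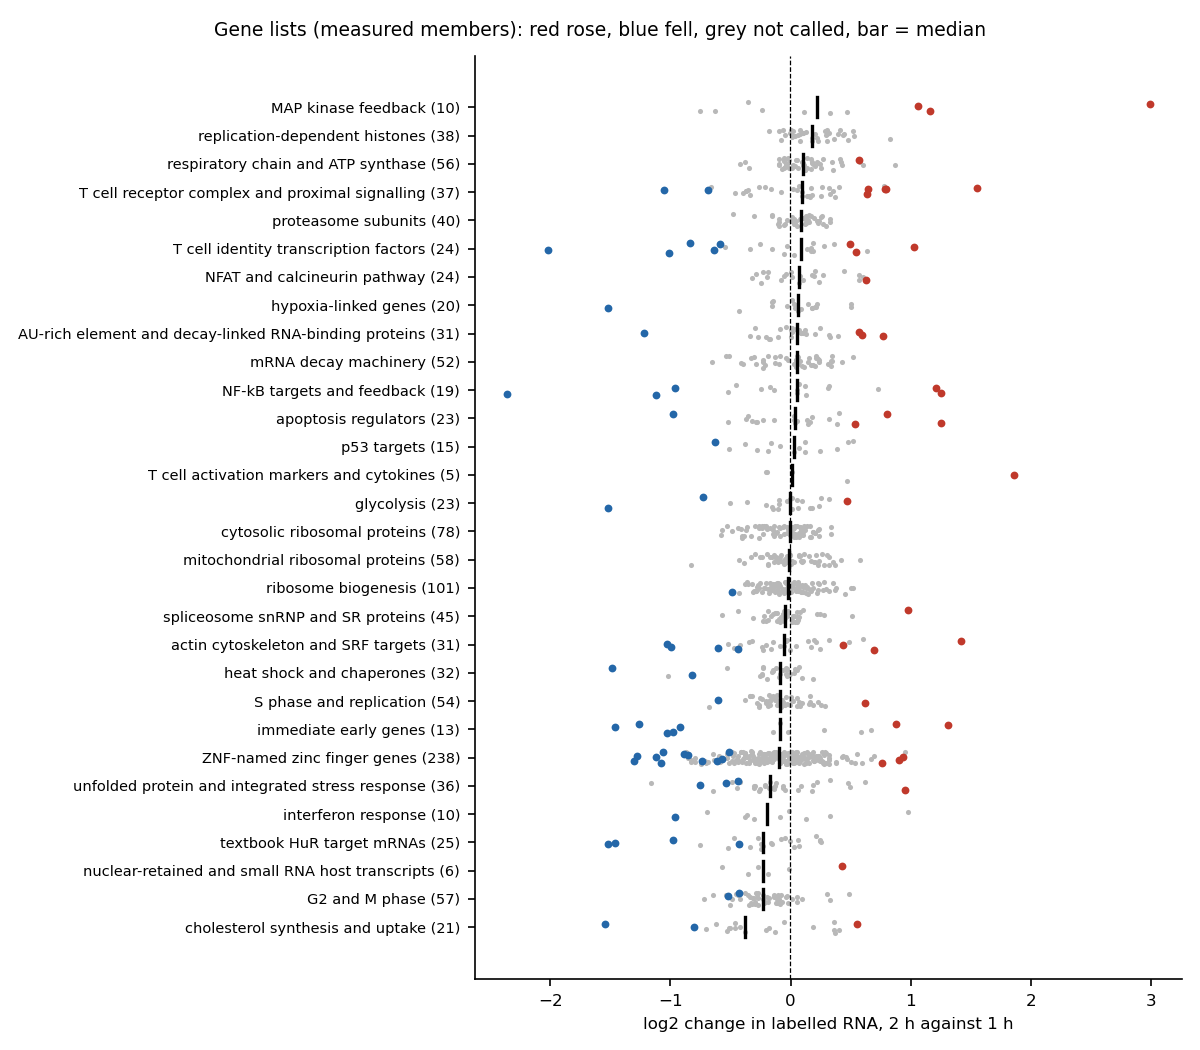
Each point is a measured member of a gene list (number of members in brackets) at its log2 change in labelled RNA from 1 h to 2 h on the x axis, with red for genes that rose, blue for genes that fell, grey for the rest, a black bar at the median of the list and a dashed line at the median of all genes. List medians lie between -0.38 and 0.22, and genes rose and fell in several lists, the NF-kB, T cell receptor, T cell identity and actin lists among them.

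Total RNA over the same hour comes from separate libraries and is set beside the labelled step here. In total RNA 132 genes rose and 82 fell, together 2.86% of those tested (limma; 1.76% higher and 1.1% lower). Of the 190 genes that rose in labelled RNA 60 rose in total RNA, none fell, and 177 had a change above 0 (93.2%, against 52.8% of all genes). Of the 168 genes that fell 37 fell in total RNA, 142 had a change below 0 (84.5%, against 47.2% of all genes), and MCL1 and INSIG1 rose. The median change in total RNA was 0.30 (log2) for the genes that rose and -0.25 for those that fell, against 0.01 over all genes.

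The difference between the labelled and the total step was then tested for every gene as an interaction in limma, which treats labelled and total RNA of a culture as independent. It was called for 42 genes, or 0.561% of those tested. In 16 (0.214%) the labelled step was the higher one and in 26 (0.347%) the lower one. All 16 had risen in labelled RNA. Of the 26, 18 had fallen in labelled RNA and 8 were not called there. Genes with the largest rises went up in both kinds of RNA: PDGFA rose by 3.78 in labelled and 3.37 in total RNA on the log2 scale, DUSP5 by 2.99 and 3.34, and NAB1 by 2.60 and 2.34, and the interaction was not called for any of them (limma adjusted p = 0.773, 0.713 and 0.790). On unlogged values it was called for all 3, with the higher step in labelled RNA (limma adjusted p = 6.45e-07, 2.7e-06 and 8.67e-11).

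In PALD1 and MFSD6 labelled RNA rose by more than total RNA. PALD1 had 8.33 and 9.83 at 1 h and 44.1 ± 5.99 at 2 h in labelled RNA, and means of 14.1 ± 1.22 (SD, n = 2) and 17.4 ± 1.5 (SD, n = 3) in total RNA. The steps differed by 1.87 on the log2 scale (limma adjusted p = 0.000533). For MFSD6 the labelled step was 2.01 and the total step 0.63, a difference of 1.38 (limma adjusted p = 0.00445). JAG1, a Notch ligand, TMC6, RCOR1, ACTN1, PHF15, RNF19A, ABI2, EXOC6 and CBFB followed with differences of 1.34 to 0.66. Of these, RNF19A had risen by 1.30 in total RNA as well, with 77.9 ± 9.10 at 1 h and 194 ± 17.9 at 2 h.

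MCL1 and INSIG1 moved in opposite directions. MCL1 rose in total RNA from 668 ± 24.7 (SD, n = 2) to 1032 ± 22.2 (SD, n = 3), a log2 change of 0.63 ± 0.10, while its labelled RNA fell by 0.98 in the same hour, and the steps differed by -1.60 ± 0.17 (limma adjusted p = 1.36e-07). INSIG1 rose in total RNA from 536 ± 11.7 to 907 ± 19.4 (log2 change 0.76 ± 0.09) and fell by 0.80 in labelled RNA, a difference of -1.56 ± 0.18 (limma adjusted p = 1.29e-06). In CD83, an activation marker of lymphocytes, labelled RNA was high in both hours, with 360 and 425 at 1 h and 408 ± 26.1 at 2 h (log2 change 0.06, limma adjusted p = 0.924). Its total RNA rose from 109 ± 20.3 to 353 ± 10.1, a log2 change of 1.69, and the steps differed by -1.63 (limma adjusted p = 2.75e-06). CDKN1A, which encodes the cell cycle inhibitor p21, likewise had 60.8 and 68.2 and then 67.7 ± 24.5 in labelled RNA, and rose from 12.4 ± 0.55 to 37.6 ± 2.91 in total RNA (difference -1.46, limma adjusted p = 0.0136). On unlogged values this difference was not called (limma adjusted p = 0.465). BIRC3, an inhibitor of apoptosis induced by NF-kB, had 411 and 527 and then 327 ± 24.3 in labelled RNA (log2 change -0.52, limma adjusted p = 0.102) and rose by 0.72 in total RNA (difference -1.24).

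SLC2A1, SRF, LSM12, DNMT3B, HK2 and IKZF2 fell in labelled RNA, and their labelled step was lower than their total step. In total RNA the log2 change of all of these except IKZF2 lay between -0.06 and 0.37 and was not called (limma adjusted p from 0.0681 to 0.981). SLC2A1 had 59.3 ± 6.84 (SD, n = 2) and 67.6 ± 2.96 (SD, n = 3) in total RNA while its labelled RNA fell by 1.52 on the log2 scale, a difference of -1.71 (limma adjusted p = 0.00610). For SRF the total RNA means were 77.8 ± 1.01 and 101 ± 6.96, a log2 change of 0.37 that was not called (limma adjusted p = 0.0681), and the difference was -1.40 (limma adjusted p = 0.000145). IKZF2 fell in both, by 2.02 in labelled and 0.76 in total RNA. NFKBIA and RAG1 also fell in both, by 1.28 and 1.49 in total RNA on the log2 scale, and the interaction was not called for either (limma adjusted p = 0.107 and 0.527). For NFKBIA it was called on unlogged values (limma adjusted p = 5.89e-14) and from the groups compared alone.

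**Figure D3:**
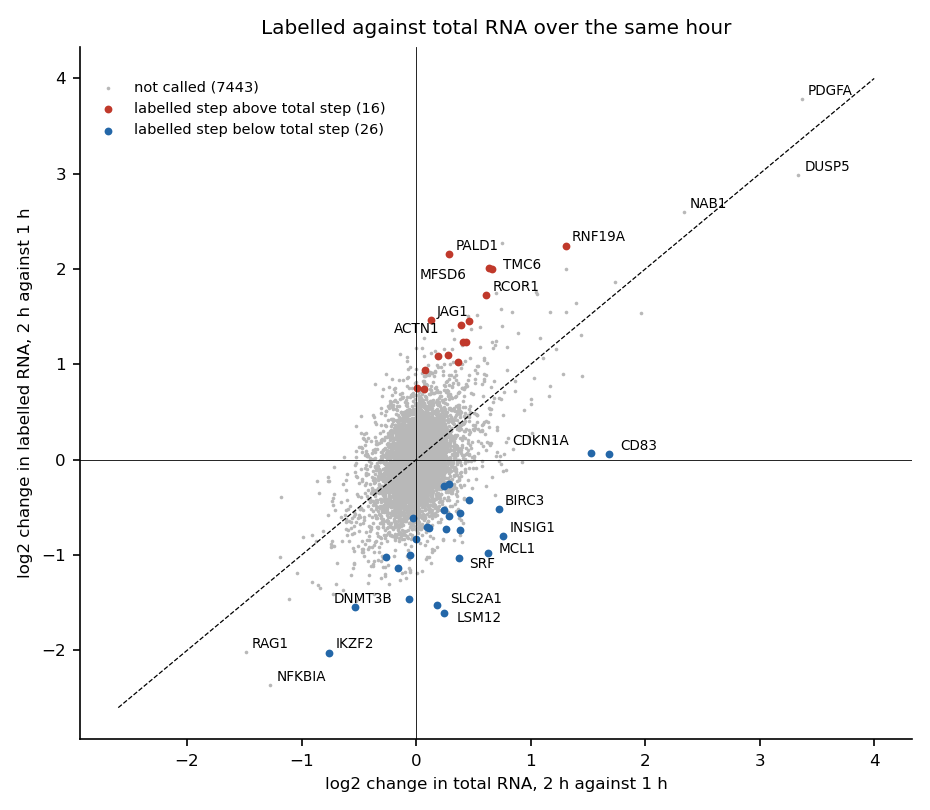
Each point is a gene at its log2 change from 1 h to 2 h in total RNA (x axis) and labelled RNA (y axis), the dashed line marks equal changes, and colour marks the 42 genes whose steps differed. PDGFA, DUSP5 and NAB1 lie near the line, PALD1, MFSD6 and TMC6 above it, and MCL1, INSIG1, CD83 and CDKN1A below and to the right.

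The labelled samples at 3 h and 4 h and of unactivated cells are not part of the step, so they show where its genes stood later. The limma fits share one estimate of the residual spread over the labelled groups. Of the 190 genes that rose from 1 h to 2 h, 170 were higher at 3 h than in unactivated cells and none was lower, where 25.2% of all genes were called, 13.8% higher and 11.4% lower. At 4 h 143 were higher and 1 (RBM33) was lower, where 27.5% of all genes were called, 13.7% higher and 13.8% lower. Of the 168 genes that fell, 116 were lower and 8 higher at 3 h, and 91 lower and 12 higher at 4 h. The median log2 change of the genes that rose was 1.15 at 3 h and 0.82 at 4 h, and that of the genes that fell -0.79 and -0.44, against 0.00 and -0.01 over all genes.

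From 3 h to 4 h, 274 genes (3.66%; 1.4% higher and 2.26% lower) were called in limma, 105 higher and 169 lower. Quantile normalisation gave 131 higher and 128 lower. Of the genes that rose from 1 h to 2 h, 52 fell again between 3 h and 4 h and 1 (POU2F1) rose further. NAB1 went from 1569 ± 110 at 3 h to 372 ± 30.7 at 4 h (SD, n = 3 each), a log2 change of -2.07 (limma adjusted p = 1.72e-14), and DUSP5 from 1016 ± 108 to 326 ± 17.9 (log2 change -1.64). PDGFA fell from 254 ± 36.3 to 95.6 ± 17.1, and IFNGR2 from 102 ± 7.24 to 36.1 ± 3.46. PALD1 was among those not called, with 71.4 ± 5.93 at 3 h and 58.7 ± 5.50 at 4 h (limma adjusted p = 0.636).

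Of the genes that fell from 1 h to 2 h, 28 rose and 6 fell between 3 h and 4 h. IKZF2 returned from 116 ± 11.9 at 3 h to 341 ± 39.7 at 4 h (log2 change 1.55, limma adjusted p = 3.32e-12), still below unactivated cells (log2 change -0.51, limma adjusted p = 0.00263). SLA went from 130 ± 10.5 to 304 ± 19.8 (log2 change 1.21) and ETS1 from 256 ± 24.9 to 398 ± 52.5 (log2 change 0.63). ARID5B, an ARID family transcription factor, had 173 and 223 at 1 h, 109 ± 3.53 at 2 h, 280 ± 19.3 at 3 h and 511 ± 11.0 at 4 h, against 212 ± 44.4 in unactivated cells. NFKBIA, by contrast, had 107 ± 28.0 at 3 h and 83.1 ± 13.9 at 4 h, and RAG1 13.3 ± 2.35 and 18.6 ± 4.96, neither called between these hours (limma adjusted p = 0.408 and 0.229). The median change from 3 h to 4 h was -0.31 for the genes that rose, 0.22 for those that fell and -0.03 over all genes.

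**Figure D4:**
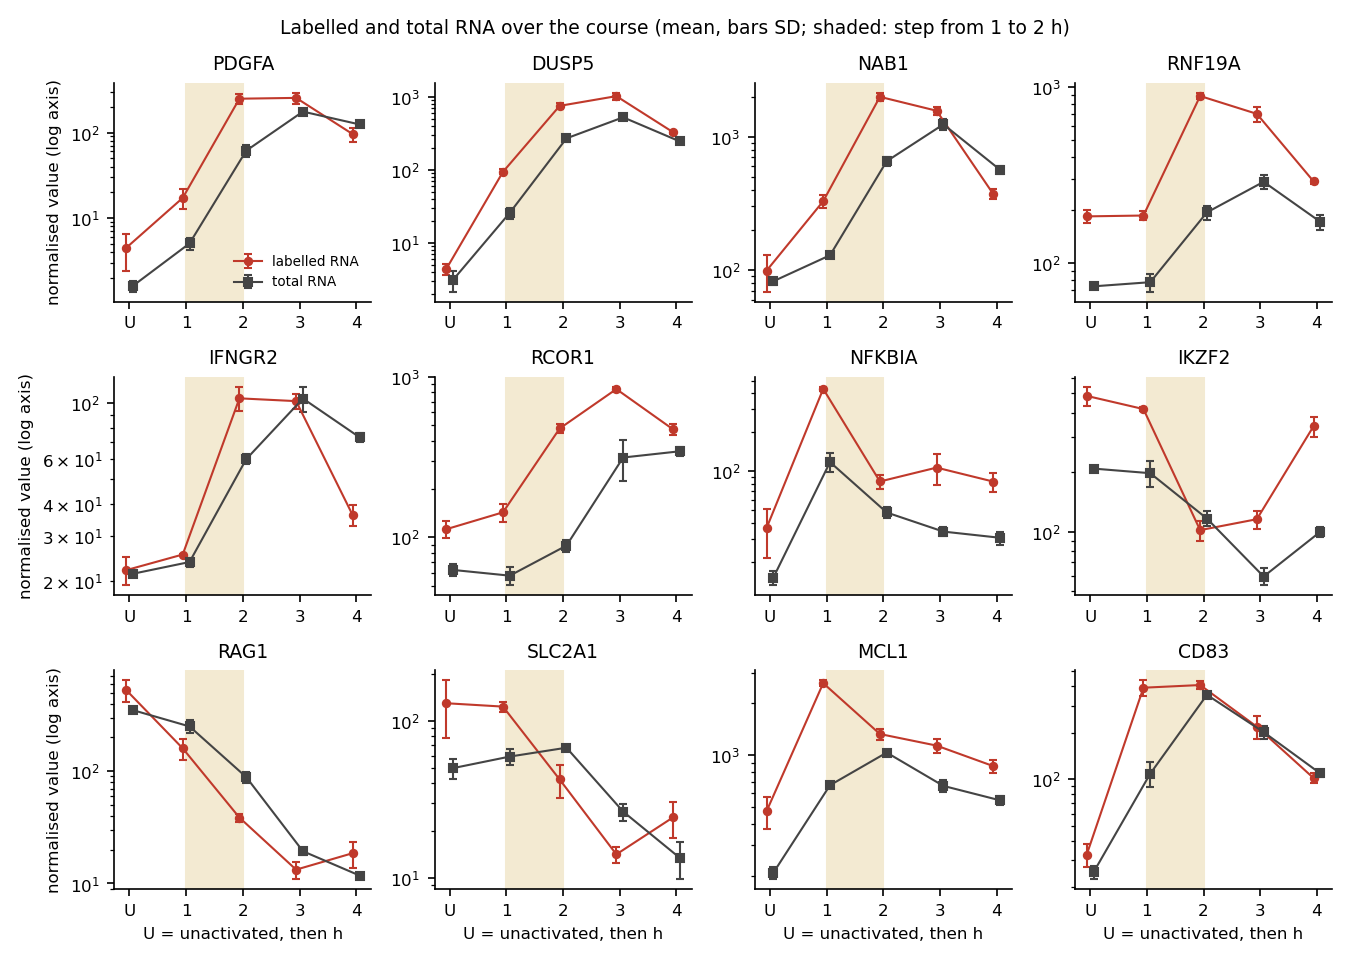
Mean normalised value (y axis, log scale; bars SD, n = 2 at 1 h and 3 otherwise) of 12 genes in labelled (red) and total RNA (grey) of unactivated cells (U) and at 1, 2, 3 and 4 h (x axis), with the step from 1 to 2 h shaded. PDGFA, DUSP5 and NAB1 climb in both kinds of RNA within the shaded hour, NFKBIA and IKZF2 drop in both, and MCL1 drops in labelled RNA while total RNA rises.

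**Figure D5:**
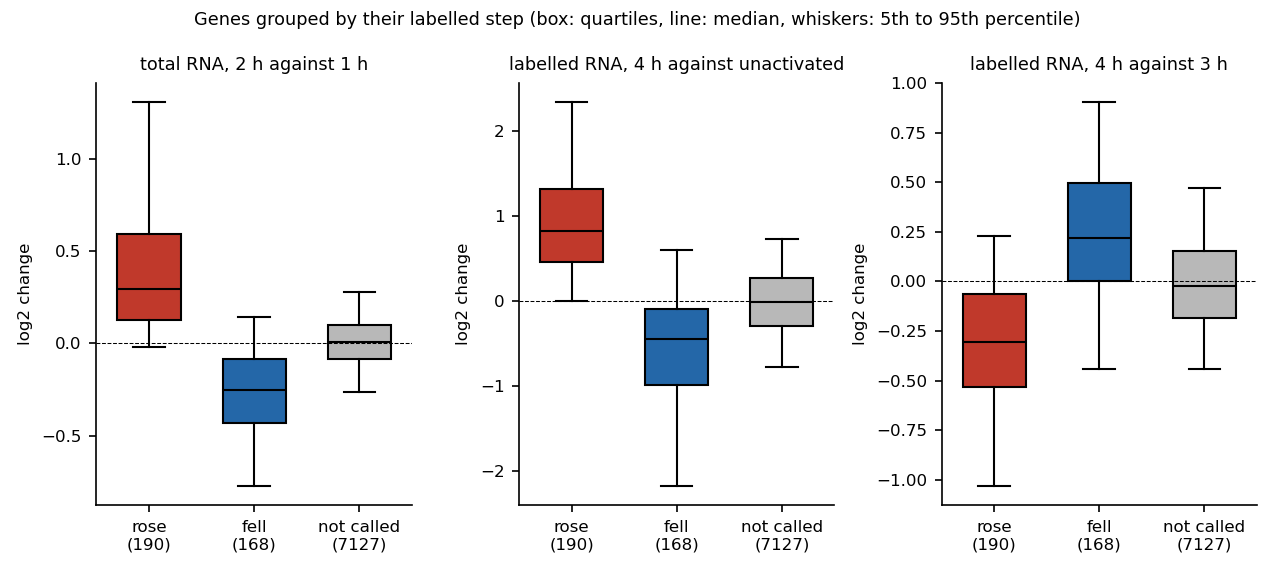
Log2 changes (y axis) in total RNA from 1 h to 2 h, in labelled RNA at 4 h against unactivated cells and in labelled RNA from 3 h to 4 h, for genes that rose (190), fell (168) or were not called (7127) in labelled RNA from 1 h to 2 h. Boxes span the quartiles around the median with whiskers from the 5th to the 95th percentile, and the medians from 3 h to 4 h are -0.31 for genes that rose and 0.22 for genes that fell.

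Features outside the contrast of 1 h with 2 h were described without a test. The labelled unactivated group, used for the first of them, does enter the residual spread of that fit. In unactivated cells the labelled-to-total ratio was 0.49 (median, log2) for the genes that rose and 0.63 for those that fell, against 0.16 over all genes. Genes that rose spanned a median of 68.7 kb and those that fell 47.0 kb, against 39.4 kb over the 7405 genes matched to GENCODE 29, and had a median of 12 and 9 exons, against 10. Their total RNA level was 72.1 and 37.8 RPKM (median of the authors' deposited mean per gene length, whose column does not name the groups averaged), against 54.5 over all genes. By the deposited calls of binding by HuR, 25.8% of the genes that rose and 22.6% of those that fell were iCLIP targets, against 19.4% of all genes. A deposited column named HuR_Any held a value for 127 of the genes that rose, 102 of those that fell and 5017 of all genes. It marked 27.6% and 16.7% of these, against 11.6%. Despite its name it marked only 584 of all genes, fewer than the 1455 iCLIP targets, and what it covers is not known. The deposited column named for ELAVL1 and the 3′ untranslated region marked 59.7% of the genes that rose and 68.9% of those that fell, against 61.0% of all genes.

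Promoters were matched for 6244 of the 7485 genes, 161 of those that rose and 143 of those that fell. The CArG box lay in 2.48% of the promoters of genes that rose, 2.10% of those that fell and 1.11% of all matched genes. The NF-kB motif lay in 4.35%, 4.20% and 2.29%, and the ETS motif (CCGGAA) in 23.0%, 23.8% and 35.1%. The TGACG core lay in 28.0%, 33.6% and 37.8%, the AP-1 motif (TGANTCA) in 3.73%, 2.80% and 3.88%, and the EGR motif in 1.24%, 0.70% and 1.28%. The CCAAT box lay in 34.2%, 46.9% and 38.1%, the TATA box (TATAAA) in 6.83%, 9.09% and 4.90%, the E-box CACGTG in 7.45%, 10.5% and 11.3%, and the full cAMP response element TGACGTCA in 3 promoters of genes that rose, 5 of those that fell and 3.89% of all matched genes. The counts behind the rarer motifs are small: 4 and 3 genes held the CArG box, and 7 and 6 the NF-kB motif.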

How the data were processed

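RNA of Jurkat cells was sequenced in 28 samples of 10 groups with ScriptSeq after Ribo-Zero depletion, per the labels' protocols, with replicates named by letters and called biological replicates in the description of the series. Whether they came from separate cultures is not said further. TopHat2, HTSeq, edgeR and the hg19 build are named in the submitters' processing notes. The authors deposited the mean and SD per group of a normalised signal of expression (per the file headers). Nothing in the labels says how labelled and total RNA were normalised. They also deposited RPKM per gene and binary calls of HuR binding, per the file headers, and both were used here for description only. Depth is unknown, since no counts were used.

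The comparison was made with limma 3.58.1 in R 4.3.3 from these summaries: the log2 of the mean plus a pseudocount of 1, with the SD propagated to the log scale by its first-order term, because the values of single samples are not in the table used. Residual variance was pooled over the 5 labelled groups (9 degrees of freedom), or all 10 groups for the interaction (18 degrees of freedom), and moderated with a trend and the robust option. P-values were adjusted by Benjamini-Hochberg over 7485 genes, with a threshold of 0.05. The filter of a mean of 1 in at least 1 group removed no gene. Both values at 1 h were taken as the mean minus and plus the SD over the square root of 2. This was checked in total RNA at 1 h, where they were whole multiples of a step for 1005 of 1005 genes under 15, within a tolerance of 0.02 of a read. On simulated data 22.4%, 65.7% and 97.0% of the genes changed 1.5-fold, 2-fold and 3-fold were recovered for the labelled step, with 6.11% of calls false, and 10.4%, 53.7% and 93.9% for the interaction, with 7.08% false. The simulated samples were independent, with 1 relative spread per gene for all groups of a kind of RNA. The real labelled groups had median coefficients of variation of 10.4% to 18.2%. These shares are therefore not error rates of the real calls.

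The text names the 12 largest called changes in each direction, the 6 largest interaction differences in each direction not already named, up to 2 called members per direction of each of 30 gene lists, and reference genes. Other genes of small counts, and those followed to 4 h, were named after their values were seen. Some genes that these rules pick are not reported here; the counts include them. The members, the lists and these rules were chosen with earlier results of these data known. Settings tried were other pseudocounts, a stricter filter, median centring, quantile normalisation, unlogged values, a constant prior variance and other groups for the residual variance. The comparisons of total RNA and of the later hours under these settings were added after seeing the data.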

Additional observations from a re-analysis of the deposited data

Results flagged for a closer look

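The change from 1 h to 2 h in labelled RNA differed from that in total RNA, by the interaction tested in limma over all genes, for 42 genes, 16 with the higher step in labelled RNA and 26 with the lower one. Each value below is the labelled step minus the total step on the log2(value + 1) scale. Groups of 2 or 3 samples allow no test for a single sample far from the others.

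Among the named genes with the lower labelled step were MCL1 (-1.60), BIRC3 (-1.24), CD83 (-1.63), CDKN1A (-1.46), SRF (-1.40) and IKZF2 (-1.26). The metabolic genes SLC2A1 (-1.71), INSIG1 (-1.56) and HK2 (-0.99) were among them as well. LSM12 (-1.86) had labelled means under 15 in both hours, and DNMT3B (-1.40) and DTL (-0.58) also had the lower labelled step. DTL was not called under 4 of the settings tried, with an adjusted p of 0.0546 to 0.0925 there.

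Among the named genes with the higher labelled step were PALD1 (1.87), MFSD6 (1.38), JAG1 (1.34), TMC6 (1.33), RCOR1 (1.11), ACTN1 (1.02), PHF15 (0.99), RNF19A (0.94), ABI2 (0.90), EXOC6 (0.87) and CBFB (0.66). ACTN1 and CBFB were not called with a constant prior variance, with an adjusted p of 0.0831 and 0.140. On unlogged values CDKN1A, DNMT3B and JAG1 were not called (limma adjusted p = 0.465, 0.0536 and 0.0525), and under quantile normalisation ACTN1 and EXOC6 were not (0.0521 and 0.0604). From the groups compared alone TMC6 was not called (0.0616).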

How the results depend on the processing

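The labelled step called 318 to 360 genes under other pseudocounts, a stricter low-value filter, median centring, quantile normalisation and unlogged values, beside 358 as reported. A constant prior variance gave 237, residual variance from all 10 groups 706, the labelled groups without the unactivated one 564, and the groups compared alone 486. The interaction called 138 genes on unlogged values, beside 42. The total step called 453 from the groups compared alone, beside 214. The comparison of 4 h with 3 h called 132 with a constant prior variance and 669 from the groups compared alone, beside 274. The cause of these shifts was not tested.

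Signs changed in a few named genes. Under quantile normalisation the step of HSPA8 and its interaction became 0 by construction, the step of GAPDH became -0.025 and its interaction 0.039, and median centring made that interaction 0.0035. With a pseudocount of 5 the interaction became 0.050 for SPRY2 and 0.012 for ID1. On unlogged values, where differences are in normalised units, it became 287 for KLF10, 412 for DUSP5, 27.7 for SPRY2, 21.0 for ID1, 40.6 for RAG1 and 4.98 for RAG2. Of these only KLF10 and DUSP5 passed the threshold (limma adjusted p = 0.00148 and 2.7e-06).

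Named calls of the labelled step were also lost on unlogged values for CCNE2, FXR2, NFATC3, PHGDH, RAG1 and RAG2, and under quantile normalisation for AEN, CCNA2 and FXR2. A constant prior variance lost all of these except RAG1, and also MALAT1, LRP2, JUNB, HERPUD1, ECT2, WDR3, PKM, SATB1, STARD4, UQCRC2, FLNA and DGKA. MALAT1 was also lost with variance from all 10 groups and CCNA2 with median centring, while BIRC3 was gained under 4 settings and ACTB from the groups compared alone (limma adjusted p = 0.00202). Interaction calls were gained from the groups compared alone for NFKBIA, DNAJB1, JUNB, ENDOD1, DUSP2 and CCNE2, with a pseudocount of 5 for DNAJB1 and UPP1, with median centring for PRPF6, and on unlogged values for many named genes, NFKBIA, PDGFA, NAB1, JUNB, TNFAIP3 and NFKB1 among them.

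No paired analysis was possible because the table gives means and SDs only and letter B is missing at 1 h. For the same reason no replicate was left out in turn. Depth sets limits that cannot be stated without counts.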

Other observations

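Genes outside the lists were read from the called genes and named after their values were seen. Among those that rose in labelled RNA from 1 h to 2 h were further receptors of the cell surface. TNFRSF1A, a receptor of tumour necrosis factor, went from 11.4 and 11.8 at 1 h to 36.0 ± 7.88 (SD, n = 3) at 2 h, a log2 change of 1.55 (limma adjusted p = 0.000368), and rose by 1.31 in total RNA. FGFR1, a receptor of fibroblast growth factors, had a log2 change of 1.74 from samples of 12.1 and 13.9 at 1 h. FLT1, a receptor of vascular endothelial growth factor, went from 28.1 and 32.5 to 64.4 ± 8.95 (log2 change 1.06). The integrin chains ITGAE and ITGB2 rose by 1.28 and 1.26 on the log2 scale in labelled RNA, where the total step was 0.07 and 0.33 and was not called (limma adjusted p = 0.974 and 0.188). The difference between the labelled and the total step was itself not called for either (limma adjusted p = 0.0626 and 0.120). SH2B3, an adaptor that damps cytokine signalling, went from 90.8 and 116 to 262 ± 14.1 (log2 change 1.33), and TRAF3, a regulator of NF-kB signalling, from 80.1 and 82.1 to 192 ± 10.7 (log2 change 1.23).

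Among the genes that fell were PTGER4, a receptor of prostaglandin E, from 169 and 195 to 70.9 ± 4.01 (log2 change -1.35, limma adjusted p = 1.39e-06), and TXNIP, an inhibitor of thioredoxin and of glucose uptake, from 81.2 and 99.2 to 35.6 ± 10.4 (log2 change -1.32). SELPLG, the ligand of P-selectin, fell from 42.7 and 43.4 to 19.1 ± 3.42 (log2 change -1.13). All 3 also fell in total RNA, by 0.84, 0.85 and 0.55 on the log2 scale. PDGFC, which encodes another platelet-derived growth factor, fell from 51.7 and 59.2 to 21.9 ± 4.96 (log2 change -1.30, limma adjusted p = 0.00103) in the hour in which PDGFA rose, and the iron exporter SLC40A1 fell from 91.2 and 105 to 48.3 ± 9.63 (log2 change -1.01).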
